A study of Mus musculus with 9 samples.

Results

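The repressive histone modifiers described here are 8 genes of Polycomb repressive complex 2, of histone H3 lysine 9 (H3K9) methylation and of class I histone deacetylation: Ezh2, Eed, Suz12, Ehmt1, Ehmt2, Setdb1, Hdac1 and Hdac2. They were chosen by gene symbol in the deposited table of expression values, and all 8 were among its 16070 rows, each on 1 row. Expression is given as FPKM, a fragment count divided by transcript length and by library size, and so can be compared between genes. The study asked what the arginine at residue 17 of histone H3, and the methyltransferase Carm1 that acts on it, do in the early mouse embryo. RNA came from C57BL/6 embryos at E4.5, around the late blastocyst, grown in culture and taken 4.5 days after microinjection, an age that all 9 libraries share. The 3 libraries labelled WT are wild type, 3 are labelled H3R17H (histidine in place of that arginine) and 3 are labelled Carm1-/-. What was injected into the wild-type embryos is not given in the sources used here. The labels call each library both an embryo and the cDNA of a single cell, and none says that libraries came from separate embryos, so p-values measure only the spread between these libraries.

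The genotype labels could not be taken at face value. Carm1 itself ranged from 6.65 to 8.86 FPKM in WT, from 0.02 to 1.88 under the label H3R17H and from 6.44 to 12.7 under the label Carm1-/-, and the column names attach Carm to the libraries titled H3R17H and Hist to those titled Carm1-/-. Groups are therefore named below by their label only, and any direction holds for the library labels and not for a genotype. The word edited is used below only as a short name for the labels H3R17H and Carm1-/- and their libraries. It does not state that an edit was shown in them. Markers of the blastocyst lineages were present: 16 of 16 trophectoderm, 13 of 13 epiblast and 13 of 14 primitive endoderm markers were in the table, while 0 of 10 cumulus and granulosa markers were. Summed trophectoderm markers reached 5802 to 8955 FPKM in WT, 1695, 1729 and 4716 under the label H3R17H and 9332, 2122 and 2648 under the label Carm1-/-. Y-linked transcripts summed to at least 28.1 FPKM in all WT libraries and in replicate 1 of both edited labels, and to at most 0.01 in the other 4. Replicate 1 labelled Carm1-/- thus stood nearer to WT than to the other libraries of its label on both measures, and values without it are given with the results.

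Polycomb repressive complex 2 places methyl groups on lysine 27 of histone H3, with Ezh2 as its catalytic subunit, Eed as the subunit that binds the finished mark and Suz12 as the scaffold. Ehmt1 (GLP) and Ehmt2 (G9a) work as a pair that mono- and dimethylates H3K9, and Setdb1 trimethylates H3K9 at retrotransposons, to which the corepressor Trim28 brings it. Hdac1 and Hdac2 are paralogous deacetylases that remove acetyl groups from histone tails within the Sin3, NuRD and CoREST complexes, and embryos without Ezh2, Eed, Suz12, Ehmt2, Setdb1 or Hdac1 die before birth.

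Ezh2, Setdb1 and Hdac2 are the members whose libraries separated between groups with the smallest p-values, so the 150 bases before their annotated starts are shown. Sequences and coordinates are RefSeq's on GRCm38.p6, read 5′ to 3′ on the strand of the gene. Capitals mark matches on either strand to the CCAAT box (CCAAT) or the GC box (GGGCGG). The windows are chr6:47595031-47595180 on the minus strand for Ezh2, chr3:95357203-95357352 on the minus strand for Setdb1 and chr10:36974394-36974543 on the plus strand for Hdac2. The Ezh2 window lies before the RefSeq start but inside the span that GENCODE gives the gene, so the 2 annotations differ on its start.
Ezh2: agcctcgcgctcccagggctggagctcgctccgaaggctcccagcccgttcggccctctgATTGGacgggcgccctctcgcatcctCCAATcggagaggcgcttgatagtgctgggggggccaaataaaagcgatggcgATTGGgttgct
Setdb1: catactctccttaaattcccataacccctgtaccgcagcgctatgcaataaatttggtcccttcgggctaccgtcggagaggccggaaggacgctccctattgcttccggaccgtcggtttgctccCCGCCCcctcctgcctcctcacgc
Hdac2: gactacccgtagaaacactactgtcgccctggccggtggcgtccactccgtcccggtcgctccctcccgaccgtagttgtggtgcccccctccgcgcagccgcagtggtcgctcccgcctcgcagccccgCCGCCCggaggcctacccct
The Ezh2 window holds 3 CCAAT matches, a number reached by 1.2% of the 32851 windows of this length in the table, while at least 1 match is in 24.5% of them. Setdb1 and Hdac2 hold 1 GC box match each, a word found in 28.6% of all windows. Of the 8 members, 7 matched the promoter table, all but Hdac1. The E box CACGTG, present in 4.3% of windows, is in none of the 3 printed. These matches describe letters and are not evidence of binding.

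In GENCODE M21 on GRCm38 all 8 are protein-coding genes. Ezh2 lies at chr6:47530139-47595341, Eed at chr7:89954654-89980983 and Suz12 at chr11:79993106-80034123. Ehmt1 lies at chr2:24789928-24919614, Ehmt2 at chr17:34898469-34914052 and Setdb1 at chr3:95323525-95357202. Hdac1 lies at chr4:129516104-129542713 and Hdac2 at chr10:36974544-37001889. Near-identical copies bear on Hdac1 most: 58.7% of the 50-base words of its principal transcript recur in other annotated transcripts, 56.4% in the processed pseudogene Gm10093, which was listed at 0.444 to 0.939 FPKM. Setdb1 shares 6.08% of its words with the noncoding gene Gm4349 (2.66 to 14.3 FPKM), and the other 6 members share none. Exons of Ezh2, Eed, Suz12 and Setdb1 overlap genes on the opposite strand, 21 exon bases of Ehmt1 overlap Gm37139 on the same strand, and whether counting used the strand is not given in the sources used here. The Hdac1 level, and to a lesser degree that of Setdb1, is uncertain on this account.

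All 8 genes were expressed in every library, at no less than 3.91 FPKM, and all 8 passed the filter for testing (1 FPKM in at least 3 libraries, 11850 genes). Hdac1 was highest and Eed next in all 9 libraries. In WT, Hdac1 reached 116 ± 18.1 FPKM (SD, n = 3) and lay above 92.6% of tested genes, while Ehmt1, at 7.60 ± 1.26, lay above 55.3%. Between them WT means descended from Eed (45.5 ± 4.51) through Ezh2 (33.9 ± 7.65), Hdac2 (29.4 ± 6.24), Suz12 (18.4 ± 1.42) and Ehmt2 (14.9 ± 1.59) to Setdb1 (10.9 ± 2.31). The WT ranges of Ezh2 and Hdac2 overlapped, and their order differed between WT libraries. Those of Setdb1 and Ehmt1 overlapped too, though Setdb1 was the higher within each of the 3 WT libraries. Hdac1 alone made up 34.9 to 53.2% of the summed FPKM of the 8 genes in a library.

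**Figure D1:**
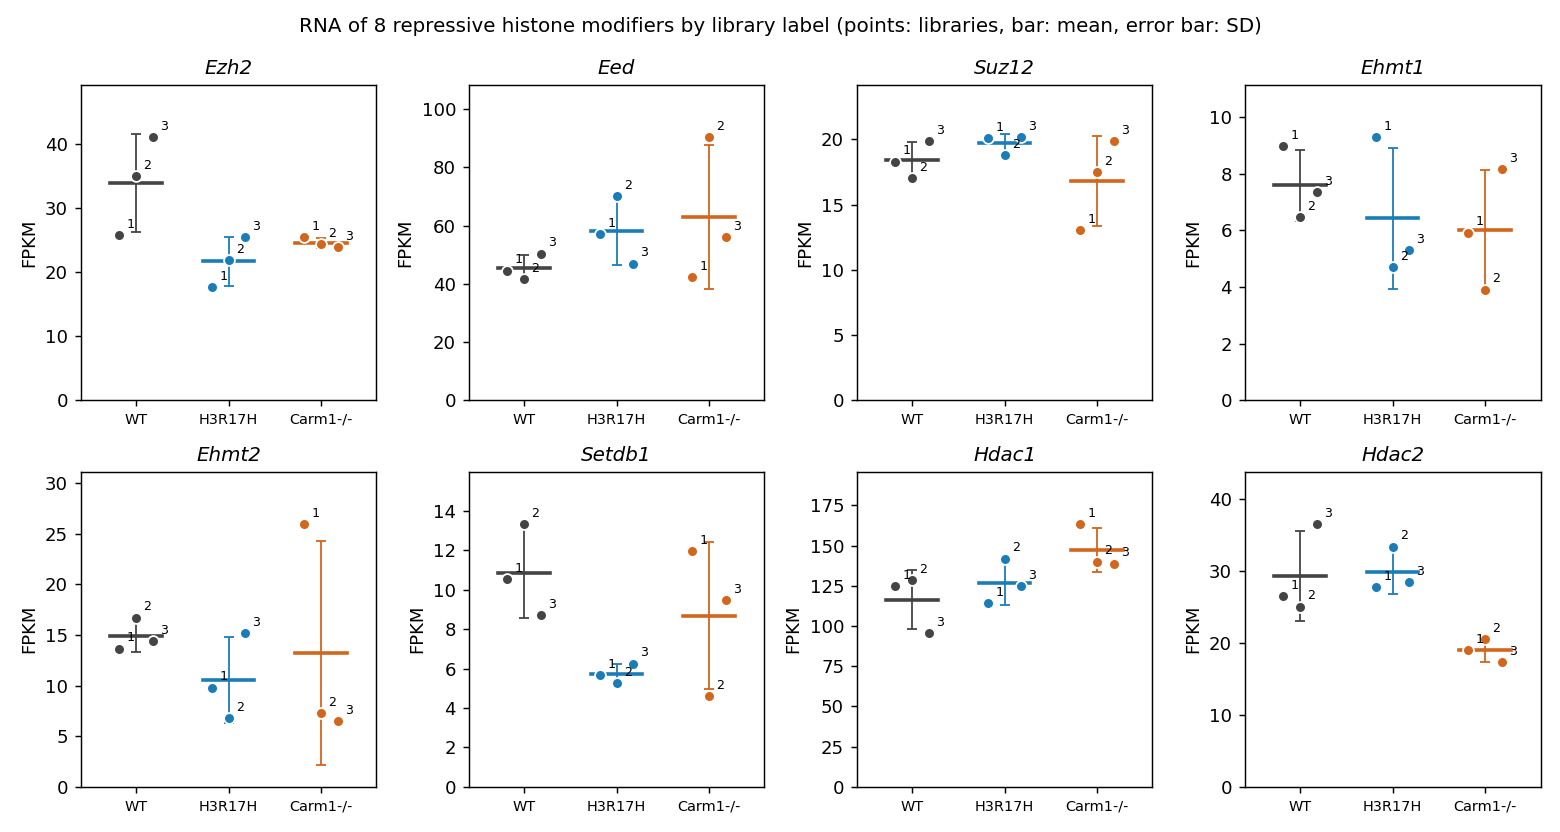
FPKM, on linear axes from 0, of each of the 8 genes in the 9 libraries by group label; numbered points are single libraries, horizontal bars are means and error bars are SD (n = 3). Ezh2 is higher in all 3 WT libraries than in any other, Setdb1 lies close together and below WT in the libraries labelled H3R17H (5.25 to 6.25), and Hdac2 is lowest in those labelled Carm1-/- (17.3 to 20.6).

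Of the 3 core subunits of Polycomb repressive complex 2, Ezh2 had libraries that separated from WT, while those of Eed and Suz12 overlapped, and no difference passed. Ezh2, the methyltransferase, stood at 25.8, 35.0 and 41.0 FPKM in WT, 17.7, 21.8 and 25.4 under the label H3R17H and 25.4, 24.3 and 23.8 under the label Carm1-/-. Every WT library lay above all 6 edited ones, though the lowest WT library cleared the highest edited one by less than 1 FPKM. The log2 difference from WT, on log2(FPKM + 1), was -0.62 for the label H3R17H (SE 0.252, 95% interval -1.17 to -0.06), with limma adjusted p = 0.326. For the label Carm1-/- it was -0.43 (SE 0.252, -0.99 to 0.13, limma adjusted p = 0.519). Neither passed the threshold of 0.05. With a sex term in the fit the values were -0.72 and -0.54 (limma adjusted p = 0.692 and 0.978). Among the libraries with Y-linked transcripts alone, where replicate 1 by itself stands for each edited label, they were -0.88 and -0.38. The part of the trophectoderm markers in the Ezh2 values was not tested. Where a library holds RNA of several cells, which the labels do not settle, fewer cells of a type and less RNA per cell cannot be told apart.

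Eed, the mark-binding subunit, had higher means under both edited labels, within its spread. It stood at 44.5, 41.5 and 50.4 FPKM in WT, at 57.2, 70.03 and 47.0 under the label H3R17H and at 42.4, 90.3 and 56.1 under the label Carm1-/-. Both edited ranges overlapped WT, and replicate 2 was the highest in each. The differences from WT were 0.33 (SE 0.29, 95% interval -0.31 to 0.97, limma adjusted p = 0.625) and 0.40 (SE 0.29, -0.25 to 1.04, adjusted p = 0.61). Suz12, the scaffold, varied least of all 8 genes, with a highest library only 1.54 times the lowest. It stood at 18.3, 17.1 and 19.9 FPKM in WT, at 20.1, 18.8 and 20.1 under the label H3R17H and at 13.05, 17.5 and 19.9 under the label Carm1-/-. Its differences from WT were 0.09 (SE 0.243, 95% interval -0.44 to 0.63, limma adjusted p = 0.89) and -0.14 (SE 0.243, -0.68 to 0.40, adjusted p = 0.85), intervals that still allow changes of the size estimated for Ezh2 under the label Carm1-/-.

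The Ezh2 level relative to Suz12 is a ratio within each library that does not depend on its scaling, and it was not tested. It was 1.41, 2.05 and 2.06 in WT, 0.878, 1.16 and 1.26 under the label H3R17H and 1.94, 1.39 and 1.199 under the label Carm1-/-. The libraries labelled H3R17H all lay below WT, and in replicate 1 of that label Ezh2 was below Suz12. Those labelled Carm1-/- spanned both ranges, with replicate 1 among the WT values.

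Of the H3K9 enzymes, Setdb1 was the one whose libraries separated from WT, under the label H3R17H alone. It stood at 10.5, 13.3 and 8.73 FPKM in WT, at 5.65, 5.25 and 6.25 under the label H3R17H and at 11.96, 4.62 and 9.46 under the label Carm1-/-. All 3 libraries labelled H3R17H lay below every WT library and close to each other, whereas those labelled Carm1-/- ran from below the first of these ranges to within the second. For the label H3R17H the difference was -0.80 (SE 0.35, 95% interval -1.58 to -0.03), with limma adjusted p = 0.344, which did not pass. For the label Carm1-/- it was -0.36 (SE 0.35, -1.13 to 0.42, limma adjusted p = 0.712), and without replicate 1 of that label -0.61. Gm4349, which shares sequence with Setdb1, overlapped between these groups, with 5.27, 3.28 and 7.87 FPKM under the label H3R17H against 6.00, 7.45 and 8.51 in WT.

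Ehmt2 (G9a) was the most variable of the 8 genes, its highest library 4.02 times its lowest. It stood at 13.6, 16.7 and 14.4 FPKM in WT, at 9.80, 6.79 and 15.1 under the label H3R17H and at 25.9, 7.25 and 6.45 under the label Carm1-/-. The WT libraries were close together, 4 of the 6 edited libraries lay below all of them, and replicate 1 labelled Carm1-/- lay above all. Differences from WT were -0.52 (SE 0.475, 95% interval -1.57 to 0.53, limma adjusted p = 0.643) and -0.42 (SE 0.475, -1.48 to 0.63, adjusted p = 0.753). Without replicate 1 labelled Carm1-/- the latter became -1.02 with a limma adjusted p = 0.114, still short of the threshold, so that library decides the size of the Ehmt2 value. Among the libraries with Y-linked transcripts, where that replicate alone stands for its label, the sign turned, to 0.76.

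Its partner Ehmt1 (GLP) was the lowest member in 7 of 9 libraries. It stood at 8.97, 6.48 and 7.35 FPKM in WT, at 9.29, 4.72 and 5.29 under the label H3R17H and at 5.92, 3.91 and 8.18 under the label Carm1-/-, with overlap in every pair of groups. Differences from WT were -0.25 (SE 0.351, 95% interval -1.03 to 0.53, limma adjusted p = 0.775) and -0.33 (SE 0.351, -1.11 to 0.44, adjusted p = 0.735). The level of Ehmt2 relative to Ehmt1 was 1.52 to 2.58 in WT and 1.06 to 2.86 under the label H3R17H. Under the label Carm1-/- it ran from 0.789 in replicate 3 to 4.38 in replicate 1, so the ratio of the pair was least settled there.

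Under the label Carm1-/-, Hdac2 had lower and Hdac1 higher values than in WT, and neither difference passed. Hdac2 stood at 26.5, 25.1 and 36.5 FPKM in WT, at 27.8, 33.4 and 28.5 under the label H3R17H and at 19.1, 20.6 and 17.3 under the label Carm1-/-. All 3 libraries of the latter label, replicate 1 included, lay below the other 6, which overlapped each other. The difference from WT was -0.59 (SE 0.238, 95% interval -1.11 to -0.06), with limma adjusted p = 0.397. Against the label H3R17H it was -0.63 (SE 0.238, -1.15 to -0.10), with limma adjusted p = 0.562. Neither passed. Both comparisons use the same Carm1-/- libraries, so they are not separate evidence. The H3R17H label differed from WT by 0.04 (-0.49 to 0.56, limma adjusted p = 0.96), an interval that leaves room for moderate change either way.

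Hdac1 stood at 125, 129 and 95.7 FPKM in WT, at 114, 142 and 125 under the label H3R17H and at 163, 140 and 139 under the label Carm1-/-. The libraries labelled Carm1-/- all lay above WT, and overlapped the highest library labelled H3R17H. The difference from WT was 0.35 (SE 0.2, 95% interval -0.10 to 0.79, limma adjusted p = 0.512), and for the label H3R17H it was 0.13 (SE 0.2, -0.31 to 0.57, limma adjusted p = 0.799). Neither passed. The Hdac1 level was 4.71, 5.13 and 2.62 times that of Hdac2 in WT, 4.11, 4.25 and 4.38 times under the label H3R17H and 8.57, 6.80 and 8.01 times under the label Carm1-/-. The libraries of the last label lay apart from all others in this ratio. It was looked at beside 2 other ratios and carries no test. Gm10093, whose sequence Hdac1 largely shares, stayed below 1 FPKM throughout. How reads shared by these 2 genes were assigned is not given, so that low value does not settle the Hdac1 level.

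**Figure D2:**
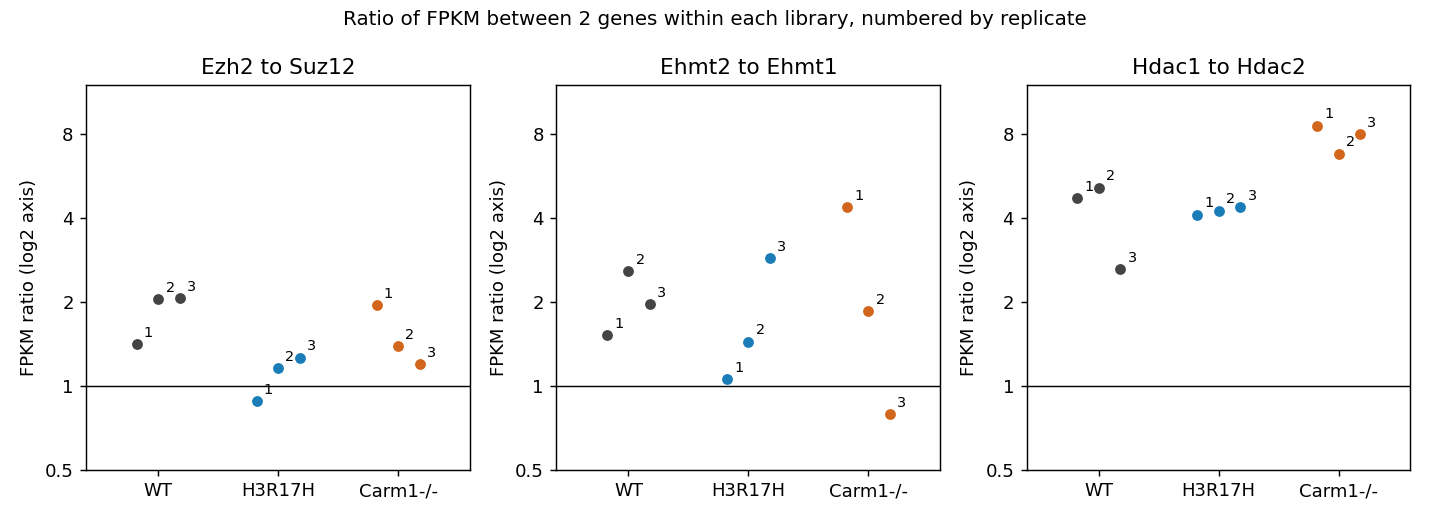
Ratio of FPKM within each library on a log axis for Ezh2 to Suz12, Ehmt2 to Ehmt1 and Hdac1 to Hdac2; numbered points are single libraries by group label, and the line marks equal levels. The Hdac1 to Hdac2 ratio is 6.80 to 8.57 under the label Carm1-/- and at most 5.13 elsewhere. Under the label H3R17H the Ezh2 to Suz12 ratio lies below WT but overlaps the label Carm1-/-.

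No member passed an adjusted p of 0.05 in any of the 3 comparisons, and neither did any of the 11850 tested genes in limma (0% called), with 1677 genes (14.2%) at an unadjusted p under 0.05 for H3R17H against WT, 1355 (11.4%) for Carm1-/- against WT and 973 (8.21%) for Carm1-/- against H3R17H. Of the members, 2, 1 and 1 were at that level. In H3R17H against WT, 2 of 8 members (Ezh2 and Setdb1, both lower) had libraries that did not overlap, against 28.9% of tested genes. In Carm1-/- against WT there were 3 of 8 (Ezh2 and Hdac2 lower, Hdac1 higher), against 16.6%. In Carm1-/- against H3R17H there was 1 of 8 (Hdac2), against 11.2%. Median log2 differences of the members were -0.11, -0.35 and 0.08, beside -0.03, -0.04 and -0.01 for all tested genes. Without replicate 1 labelled Carm1-/-, 549 genes (4.63%) passed in Carm1-/- against WT and 125 (1.05%) in H3R17H against WT, and no member was among them. The members' differences for Carm1-/- against WT were then -0.45 for Ezh2, 0.64 for Eed, 0.021 for Suz12, -0.35 for Ehmt1, 0.27 for Hdac1 and -0.59 for Hdac2. The comparisons share libraries, so the lower Ezh2 values against WT under both labels rest on the same 3 WT libraries. An exact permutation of 3 against 3 libraries cannot reach a two-sided p below 0.1.

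**Figure D3:**
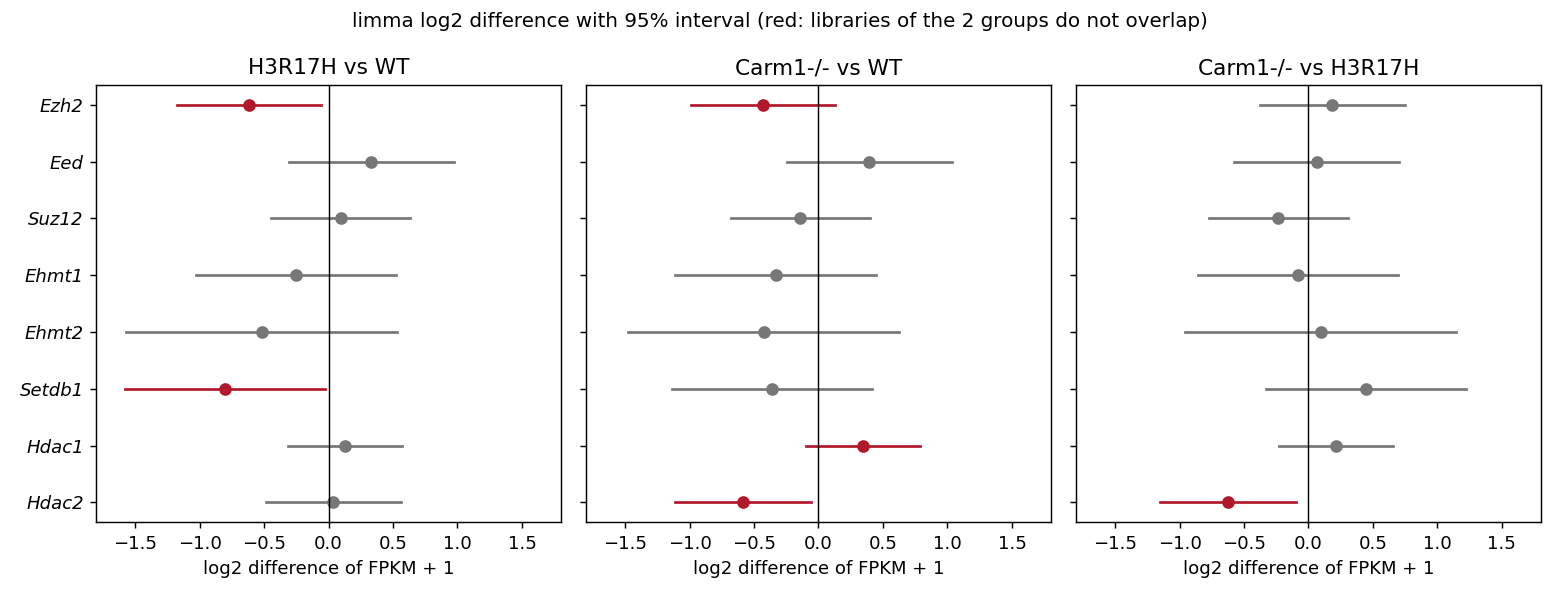
Log2 difference of log2(FPKM + 1) for each of the 8 genes in the 3 comparisons; points are limma estimates, lines their 95% intervals, and red marks members whose libraries did not overlap. The intervals that leave out 0 are those of Ezh2 and Setdb1 for H3R17H against WT and of Hdac2 for Carm1-/- against both other groups, and none of these differences passed after adjustment.

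The direct comparison of the edited labels gave small differences for most members. Beside Hdac2, the widest was Setdb1 at 0.45 (SE 0.35, 95% interval -0.33 to 1.22, limma adjusted p = 0.789), followed by Suz12 at -0.23 (limma adjusted p = 0.843) and Hdac1 at 0.22 (adjusted p = 0.825). Ezh2 differed by 0.19 (limma adjusted p = 0.883), so its lower values against WT under the label H3R17H were not shown to differ from those under the label Carm1-/-. Eed, Ehmt1 and Ehmt2 differed by 0.06, -0.08 and 0.09, with limma adjusted p-values of at least 0.965.

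The other genes of these pathways were read from companion lists, and none of their members passed in any comparison. Of 10 listed partners of Polycomb repressive complex 2, 7 were tested, with medians of -0.02 (H3R17H against WT) and -0.17 (Carm1-/- against WT). Jarid2, which helps recruit the complex, was the partner with the smallest p under the label Carm1-/-. It had 45.1 ± 16.04 FPKM there, 74.5 ± 11.2 under the label H3R17H and 88.4 ± 10.5 in WT (SD, n = 3 each), a difference from WT of -1.02 (limma adjusted p = 0.266) with no overlap. Rbbp7, an X-linked histone-binding subunit shared with the deacetylase complexes, differed from WT by 0.65 and 0.64 under the 2 labels (limma adjusted p = 0.36 and 0.444). Its libraries also fell apart by their Y-linked transcripts: it had 316, 269 and 228 FPKM in WT, 267 in replicate 1 labelled H3R17H and 329 in replicate 1 labelled Carm1-/-, but 542 and 522 (labelled H3R17H) and 556 and 402 (labelled Carm1-/-) in the 4 libraries without them.

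Polycomb repressive complex 1 ubiquitinates histone H2A and can bind the mark that Ezh2 makes. Of its 25 listed subunits 18 were tested, with medians of 0.18 and 0.06 against WT, and 11 above 0 and 7 below in each comparison. Bmi1, a ring-finger subunit, was low in all libraries and lower without overlap in both edited labels: it had 2.67 ± 0.335 FPKM in WT, 1.07 ± 0.174 under the label H3R17H (-0.82, limma adjusted p = 0.282) and 1.37 ± 0.333 under the label Carm1-/- (-0.63, limma adjusted p = 0.444). L3mbtl2 went the other way under the label H3R17H, with 19.4 ± 1.16 FPKM against 12.2 ± 2.90 in WT (0.65, limma adjusted p = 0.370), without overlap. Pcgf1 was also above WT, by 0.76 and 0.66 under the 2 labels (limma adjusted p = 0.379 and 0.501), with overlap in both.

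Among partners and readers of H3K9 methylation, 16 of 19 were tested, with medians of -0.03 and -0.25 against WT. Cbx3 (HP1 gamma), a reader of the mark, had 24.8 ± 10.9 FPKM in WT, 7.49 ± 5.42 under the label H3R17H and 14.3 ± 4.20 under the label Carm1-/-. Its difference for H3R17H against WT was -1.87 (SE 0.591, limma adjusted p = 0.247), without overlap. Cbx5 (HP1 alpha) differed by -0.62 in that comparison (limma adjusted p = 0.362), also without overlap. Both were named for their small p-values there. The remaining HP1 gene, Cbx1 (HP1 beta), which was looked up afterwards, differed by -0.18 with overlapping libraries (limma adjusted p = 0.785). Morc2a, which acts with the HUSH silencing complex, had higher values, with 10.04 ± 2.03 FPKM under the label H3R17H against 5.87 ± 0.713 in WT (0.67, limma adjusted p = 0.433), without overlap. For Carm1-/- against WT the smallest p-values of the list were those of Setdb2, Atf7ip and Uhrf1. Their differences were -1.04, 0.68 and -1.26 (limma adjusted p = 0.427, 0.44 and 0.474). Setdb2, which was low in all libraries, and Atf7ip did not overlap WT, and Uhrf1 did.

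The subunits of deacetylase complexes held the widest spread. Of 30 listed, 26 were tested: 17 were below 0 in each comparison with WT (52.3% and 53.7% of all tested genes were), with medians of -0.22 (H3R17H) and -0.11 (Carm1-/-). Tbl1x, of the NCoR corepressor that carries Hdac3, had 15.2, 13.9 and 15.4 FPKM in the WT libraries. Under the label H3R17H it had 3.08, 3.42 and 1.94 FPKM, a difference of -2.07 (SE 0.299) with limma adjusted p = 0.155. Its scaffold partner Ncor1 had 11.2 ± 2.10 FPKM in WT, 4.41 ± 1.24 under the label H3R17H and 5.82 ± 0.535 under the label Carm1-/-. The Ncor1 differences from WT were -1.18 (limma adjusted p = 0.224) and -0.82 (adjusted p = 0.366), without overlap in either. Brms1, a Sin3 complex subunit, was set apart in the same libraries as Hdac2: it had 31.5 ± 2.70 FPKM under the label Carm1-/- against 55.6 ± 4.31 in WT and 62.4 ± 9.53 under the label H3R17H. Its difference from WT was -0.80 (limma adjusted p = 0.266). Sap30, another Sin3 complex subunit, had higher values instead: 2.66, 0.83 and 1.19 FPKM in WT, 7.45, 22.3 and 5.50 under the label H3R17H and 2.35, 23.04 and 13.6 under the label Carm1-/-. Its differences from WT were 2.15 (SE 0.706, limma adjusted p = 0.252), without overlap, and 2.11 (SE 0.706, adjusted p = 0.326), with overlap through replicate 1.

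The demethylases that oppose these marks had medians of 0.01 and -0.07 against WT over 9 tested genes of 13. Germline genes that somatic cells keep silent, some of them under Ehmt2, Setdb1 or Polycomb, were tested for 15 of 21. Their median was 0.63 for H3R17H against WT and 0.47 for Carm1-/- against WT, with 9 above 0 and 6 below in each, and none passed. The lowest differences were -0.54 and -0.85. The genes named next had the smallest p-values against WT, and all of these were higher. Zfp42 (Rex1), also an epiblast marker, had 45.5, 47.2 and 50.2 FPKM in the WT libraries, and all 6 edited libraries lay above these, with differences of 0.92 and 1.15 (limma adjusted p = 0.224 and 0.196). Asz1, of the piRNA pathway, had 5.64 ± 2.08 FPKM in WT, 12.3 ± 4.41 under the label H3R17H and 13.4 ± 2.57 under the label Carm1-/-, with differences of 0.999 and 1.15 (limma adjusted p = 0.264 and 0.275). Sycp3, of the meiotic chromosome axis, differed by 1.41 for Carm1-/- against WT (limma adjusted p = 0.371), without overlap. Under the label H3R17H it had 13.56, 91.87 and 42.84 FPKM and overlapped WT (19.35, 15.95 and 18.35). Tdrd9, a piRNA pathway helicase, had 0, 0 and 0.41 FPKM in WT and 3.20, 4.58 and 1.26 under the label H3R17H, a difference of 1.74 (limma adjusted p = 0.237). Under the label Carm1-/- it had 0, 1.71 and 2.62 FPKM, which overlapped WT. Oocyte markers, 5 of 12 in the table, summed to 1.73 to 2.78 FPKM in WT, 3.68 to 7.24 under the label H3R17H and 7.08 to 29.2 under the label Carm1-/-, and their part in the germline values was not tested.

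**Figure D4:**
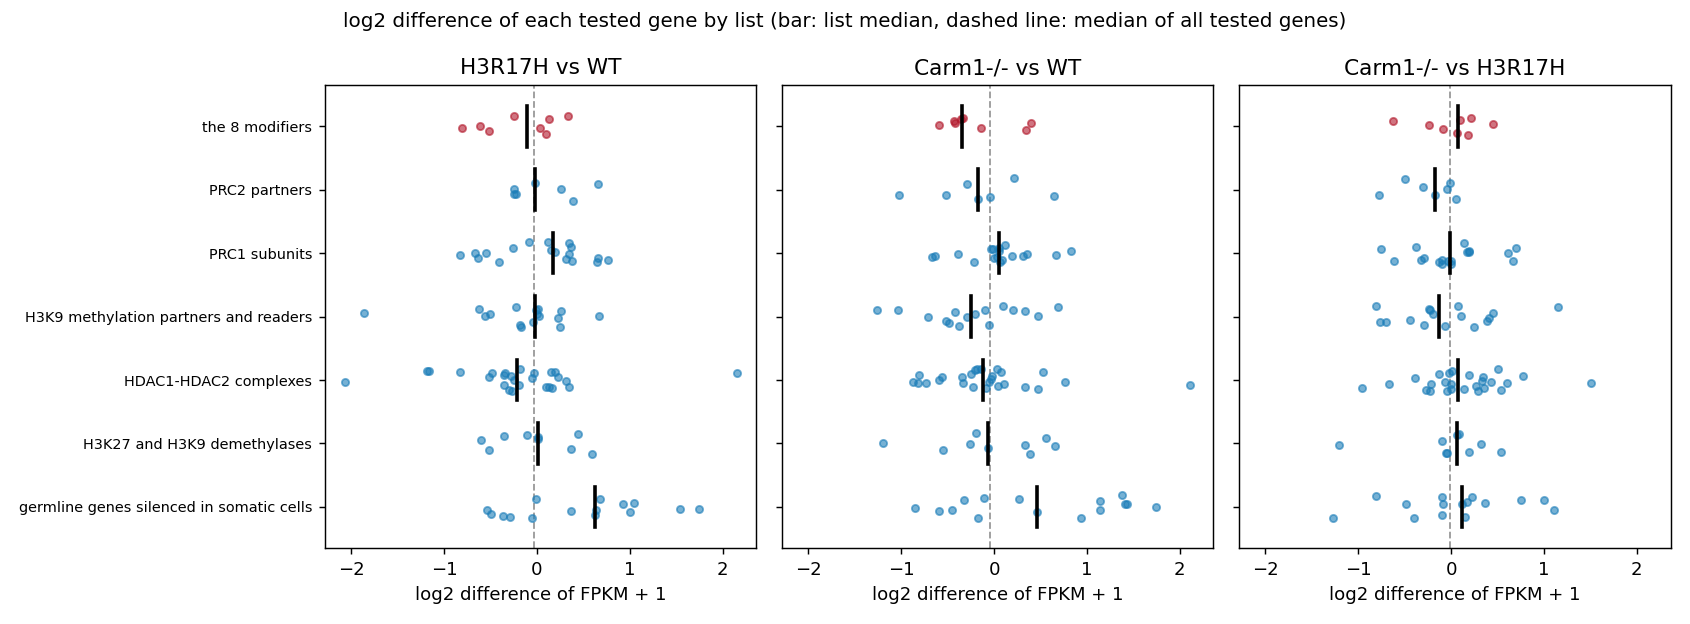
Log2 difference of every tested gene of the 8 members and the companion lists in the 3 comparisons; each point is a gene, the bar is the list median and the dashed line the median of all tested genes. Deacetylase complexes span -2.07 to 2.15 for H3R17H against WT, and no point passed after adjustment.

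Genes whose pattern over the 9 libraries lay nearest to each member were found among 10188 tested genes, by the root mean square difference of centred log2(FPKM + 1) values. For Ezh2, whose own SD was 0.344, they were Sdc4 (0.1004), Cnot9 (0.111) and Vta1 (0.134). For Ehmt2 (own SD 0.63) they were Fosl2 (0.121), Idh1 (0.191) and Nbas (0.2), and for Setdb1 (own SD 0.492) C2cd3 (0.136), Hdhd2 (0.161) and Camkmt (0.175). For Hdac2 (own SD 0.347) they were Rsbn1l (0.172), Pdcd6 (0.173) and Ube2e1 (0.175). The nearest gene of Hdac2 lay farther off than the nearest gene of Ezh2, Ehmt2 or Setdb1. For Eed they were D8Ertd738e, Rsl24d1 and Hs2st1, for Suz12 Mrps12, Mapk1ip1l and E2f6, for Ehmt1 Trappc11, Creb1 and Arl4a, and for Hdac1 Trrap, Stat6 and Snx27. No other member was among the nearest 3 of any member.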

How the data were processed

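FPKM values for 9 libraries (3 groups of 3, grouped by sample title) were deposited by the authors as 1 table, a column per library. The builds GRCm38 and mm10 and the tool Bowtie 0.12.2 are named per the submitters' processing notes, without a role. The sources used here do not give the quantifier, annotation, read strand or depth, so no counting interval is given. No column lacked a sample (0).

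Members and companion lists were chosen with earlier results of these data known. Values were tested as log2(FPKM + 1), which understates changes of low genes, in genes that reached 1 FPKM in 3 or more libraries. All 9 libraries entered 1 limma fit with an intensity trend, with 3 contrasts and Benjamini-Hochberg adjustment over 11850 genes at 0.05. The fit was tested on simulated data for H3R17H against WT. It called 55% of the genes given a log2 change of 2 in size, 83% of those given 3 and 0.0258% of unchanged genes. The member differences were smaller than these changes, so a member that did not pass is not shown to be unchanged. Named genes were all members, Carm1, genes past the threshold or else those of a list with the 3 smallest p-values per comparison, and the 3 genes nearest in pattern to each member. Of these, some list genes are not reported, decided after the values were seen. Marker lists covered trophectoderm, epiblast, primitive endoderm, oocyte and polar body, cumulus and granulosa, fibroblast and blood, Y-linked genes and proliferation. The fibroblast and blood list had 1 of 9 genes in the table (at most 4.09 FPKM), and proliferation markers summed to 1853 to 2376 FPKM. Alternatives varied the pseudocount, filter, scaling, trend, weights, groups fitted, replicate block, sex and each library left out. Positions come from GENCODE M21 and promoter windows from RefSeq. Tools were R 4.3.3, limma 3.58.1, Python 3.11.15, pandas 2.3.3, numpy 2.4.6 and matplotlib 3.10.9.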

Additional observations from a re-analysis of the deposited data

How the results depend on the processing

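Across 21 alternatives for each of 24 member differences no member passed the threshold, and 479 of 504 values kept their direction. Many of these could not move the estimate. They are changes to the filter, trend, groups fitted or replicate block, and leaving out a library of the group not compared. In Carm1-/- against H3R17H the sex term is a further one, since both labels hold Y-linked transcripts in replicate 1 alone. A direction kept under them was fixed in advance and carries no support. Ezh2 and Setdb1 in H3R17H against WT (-0.88 to -0.47 and -0.94 to -0.56) and Hdac2 in Carm1-/- against WT (-0.69 to -0.43) kept their direction in all 21. Their lowest limma adjusted p-values were 0.169, 0.101 and 0.204. Counts of genes called moved from 0 as follows, and the cause was not tested. In H3R17H against WT they were 1 with a pseudocount of 5, 192 with array quality weights and 240 when fitting the compared groups alone. Leaving out 1 library gave 0 to 125, the most without replicate 1 labelled Carm1-/-. In Carm1-/- against WT they were 1 with a pseudocount of 0.1, 1 with array quality weights and 0 to 549 leaving out 1 library, the most again without that replicate. In Carm1-/- against H3R17H they were 1 with a pseudocount of 0.1 or 5, 2 with median-of-ratios scaling or quantile normalization, 3 without the trend, 6 with only the libraries holding Y-linked transcripts and 0 to 10 leaving out 1 library. Signs reversed with a sex term in H3R17H against WT for Suz12 (-0.052), Ehmt1 (0.024), Ehmt2 (0.057) and Hdac2 (-0.0071), and in Carm1-/- against WT for Ehmt2 (0.15). With only the libraries holding Y-linked transcripts, replicate 1 by itself stands for each edited label. The count listed above for Carm1-/- against H3R17H in that setting thus compares 1 library with 1. Its spread comes from the WT libraries alone, so no conclusion is drawn from it. Counts against WT are not given for that setting. Signs then reversed in H3R17H against WT for Ehmt1 (0.27), Hdac1 (-0.018) and Hdac2 (-0.060). They also reversed in Carm1-/- against WT for Eed (-0.094), Ehmt2 (0.76) and Setdb1 (0.15), and in Carm1-/- against H3R17H for Eed (-0.42). With array quality weights they reversed in Carm1-/- against H3R17H for Ehmt1 (0.075) and Ehmt2 (-0.28). Leaving out 1 library gave, in H3R17H against WT, -0.0054 to 0.21 for Hdac1 and -0.063 to 0.20 for Hdac2. It gave -0.27 to 0.021 for Suz12 in Carm1-/- against WT and, in Carm1-/- against H3R17H, -0.23 to 0.31 for Eed, -0.30 to 0.18 for Ehmt1 and -0.50 to 0.43 for Ehmt2. The main fit did not pair same-numbered libraries. Across groups, r of deviations was -0.05 to 0.18 for same-numbered libraries and -0.25 to 0.27 for the others, which cannot settle whether they were paired. The replicate block called 0 genes in each comparison. Depth is unknown, so its limit on low genes such as Bmi1 cannot be given.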

Other observations

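Kdm6a, an X-linked demethylase of the mark that Ezh2 makes, divided the libraries by their Y-linked transcripts and not by group label. It stood at 3.52, 2.17 and 4.27 FPKM in WT, 2.90 in replicate 1 labelled H3R17H and 4.27 in replicate 1 labelled Carm1-/-, the 5 libraries with Y-linked transcripts. In the 4 libraries without them it stood at 8.14 and 6.35 (labelled H3R17H) and at 8.10 and 5.25 (labelled Carm1-/-). This split was seen in the data and carries no test.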
